A study of Homo sapiens with 4 samples.

Results

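Metallothioneins were followed through 2 human B-cell lymphoma lines and a rituximab-resistant subline of each, together with MTF1, the transcription factor that switches them on. All probe sets annotated to MT1E, MT1F, MT1G, MT1H, MT1M, MT1X, MT2A or MTF1 were taken, which gave 14 probe sets of 8 genes, out of 54613 probe sets and 19775 genes with a probe set of a single symbol. The genes were chosen by the deposited signals of MT1H, which were lower in both resistant sublines than in their parents. Differences between resistant and parental cells in either line are therefore given as descriptions, without a test.

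The cultures were Jeko-1/R, a rituximab-resistant subline of the mantle cell lymphoma line Jeko-1, its parent Jeko-1, Raji/R, a rituximab-resistant subline of the Burkitt lymphoma line Raji, and its parent Raji. Rituximab is an antibody against the B-cell surface protein CD20. The labels describe the resistant cells as treated with rituximab and the parental cells as not treated. They give no dose, no time, and no word on whether a subline is 1 clone or whether antibody was present at harvest. Total RNA of each culture was hybridised to 1 Affymetrix expression array, so every group had 1 array and no replicate.

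Metallothioneins are small, cysteine-rich proteins that bind zinc and copper ions and also capture cadmium. They buffer free zinc in the cell and hold toxic metals. MTF1 senses zinc, enters the nucleus and binds metal response elements in metallothionein promoters, and glucocorticoids and oxidative stress also raise metallothionein transcripts in many tissues. The human genes MT2A, MT1E, MT1M, MT1F, MT1G, MT1H and MT1X lie in that order in 1 cluster on chromosome 16 (RefSeq, GRCh38.p14). Their coding sequences are so alike that array probes may bind transcripts of several of them.

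Promoters are shown for the chosen gene MT1H, for MT2A and MT1X, which carried high signals in Raji cells, and for their regulator MTF1. Of the 8 genes these 4 had a promoter in the RefSeq table. Each is the 250 bases before the annotated gene start in GRCh38.p14. MT1H is chr16:56669564-56669813 on the plus strand, MT2A is chr16:56608334-56608583 on the plus strand, MT1X is chr16:56682220-56682469 on the plus strand, and MTF1 is chr1:37859593-37859842 on the minus strand. Capitals mark the 7-base core of the metal response element, TGCACNC or TGCGCNC, on either strand.
MT1H: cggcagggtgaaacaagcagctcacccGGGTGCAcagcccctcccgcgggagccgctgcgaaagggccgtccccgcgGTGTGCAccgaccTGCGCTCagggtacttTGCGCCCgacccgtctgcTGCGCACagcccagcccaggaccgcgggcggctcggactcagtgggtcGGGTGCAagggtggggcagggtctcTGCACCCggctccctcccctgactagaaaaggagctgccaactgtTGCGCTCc
MT2A: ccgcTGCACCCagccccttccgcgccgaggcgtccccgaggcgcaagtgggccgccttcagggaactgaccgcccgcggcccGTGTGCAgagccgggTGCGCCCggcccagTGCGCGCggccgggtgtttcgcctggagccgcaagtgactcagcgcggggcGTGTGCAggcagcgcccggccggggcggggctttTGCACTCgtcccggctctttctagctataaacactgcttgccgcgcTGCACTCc
MT1X: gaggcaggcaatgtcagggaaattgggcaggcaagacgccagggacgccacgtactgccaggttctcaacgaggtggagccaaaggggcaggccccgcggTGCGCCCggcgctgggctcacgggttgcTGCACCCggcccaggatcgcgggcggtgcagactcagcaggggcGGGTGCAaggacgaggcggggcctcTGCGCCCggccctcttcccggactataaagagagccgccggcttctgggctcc
MTF1: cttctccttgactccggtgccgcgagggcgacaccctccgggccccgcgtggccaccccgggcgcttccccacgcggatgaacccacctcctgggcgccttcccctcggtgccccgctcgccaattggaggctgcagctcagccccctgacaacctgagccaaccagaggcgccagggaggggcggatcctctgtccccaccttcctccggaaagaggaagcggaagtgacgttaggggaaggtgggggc

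The core was present 8 times before MT1H, 7 times before MT2A, 4 times before MT1X and 0 times before MTF1. No 2 matches overlapped. Of all 35116 promoters in the table, 24.8% held at least 1 core in a window of this length, 0.37% held at least 4, 0.0313% held at least 7 and 0.0171% held at least 8. In MT1H and MT1X, cores began at the same positions, -78 and -53, counted with the first base of the gene as 0. The sequence TATAAA on the gene's strand was present before MT2A and MT1X and not in the windows of MT1H and MTF1, and 6.8% of all promoters held it. Such matches describe letters in a window and do not show binding in these cells.

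Signals were read as MAS5 values, a background-corrected brightness that is scaled to a common mean on each array. The pooled median of all values, a signal of 77.5, served as a floor. Of the 11 metallothionein probe sets, 9 were above the floor on all 4 arrays, and so were the 3 probe sets of MTF1. The other metallothionein probe sets, MT1M 217546_at and MT1G 210472_at, stayed below the floor on every array. For them no ratio is given. All 9 metallothionein probe sets with a measurable signal have the suffix x_at, with which the array's maker marks probe sets whose probes may also bind other transcripts. The probe set 204326_x_at, annotated to MT1X, carries as its source the RefSeq transcript of MT1L. MT1L is a pseudogene of the same cluster that lies between MT2A and MT1E, away from MT1X.

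**Figure D1:**
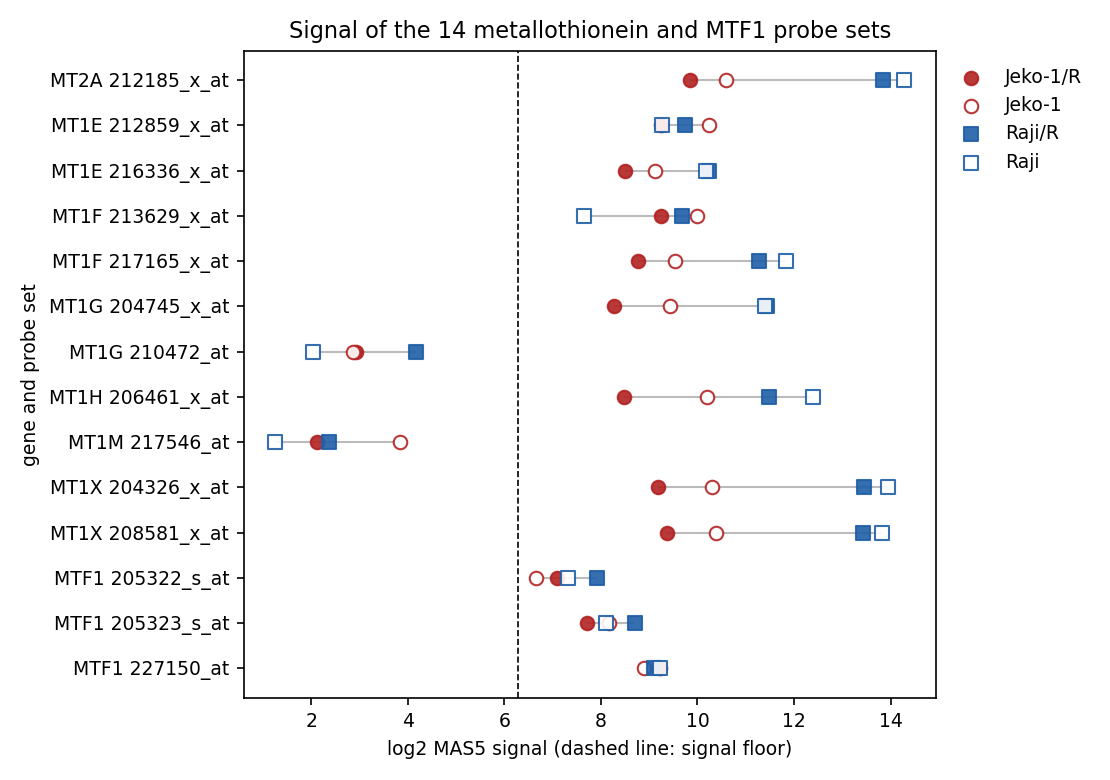
Log2 MAS5 signal of each metallothionein and MTF1 probe set on the 4 arrays, 1 symbol per array, with filled symbols for resistant and open symbols for parental cells; the dashed line is the floor. The 9 x_at probe sets lie above the floor on every array, and MT1G 210472_at and MT1M 217546_at lie below it on every array.

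The depth and identity of the arrays were examined once. The trimmed mean signal lay between 494 and 497 on the 4 arrays. On the Raji/R array 55.6% of probe sets reached the floor, against 48.0% to 48.3% on the others. The mantle cell genes CCND1 and SOX11 were above the floor in Jeko-1/R and Jeko-1 only, but the third mantle cell marker, CD5, was not. It had 51.5 in Jeko-1/R and 21.0 in Jeko-1, below the floor, and 121 in Raji/R, above it, against 47.4 in Raji. Of the Burkitt and germinal-centre markers, BCL6 had 432 in Jeko-1/R and 392 in Jeko-1, against 14566 in Raji/R and 14398 in Raji. MYC was higher in the Jeko-1 lines, with 20460 in Jeko-1/R and 24145 in Jeko-1, against 6029 in Raji/R and 6681 in Raji, and MME was above the floor on all 4 arrays. The B-cell markers MS4A1, CD79A, CD79B and PAX5 were above the floor on all 4 arrays, and PAX5 was 2.35-fold lower in Raji/R, at 5628 against 13252 in Raji. Of 5 T-cell markers, 2 reached the floor in Jeko-1/R, 1 in Jeko-1, 3 in Raji/R and 2 in Raji. CD3E and CD2 were below it on every array. CD247 was above the floor on all 4 arrays, with 2212 in Jeko-1/R, 2185 in Jeko-1, 147 in Raji/R and 218 in Raji. Of 5 myeloid markers, 1, 0, 2 and 1 reached it on the same arrays, and CD14, LYZ and MPO were below it on every array. Of 7 epithelial and stromal markers, 3, 4, 4 and 4 reached it, with a summed signal of 454, 675, 2458 and 2355. Most of the sum in the Raji lines was COL1A1, at 1465 in Raji/R and 1916 in Raji. KRT18 had 381 in Raji/R against 34.7 in Raji, at least 4.92-fold higher, and COL1A2 had 264 against 86.8, 3.05-fold higher. The part of such markers in the metallothionein values was not tested. In bulk RNA, fewer cells with a transcript and less transcript per cell cannot be told apart.

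In Jeko-1/R the metallothionein signals were lower than in Jeko-1 on every probe set that could be read. MT1H, the gene for a class I metallothionein, had a signal of 354 in Jeko-1/R, against 1175 in Jeko-1. This is 3.32-fold lower, a log2 ratio of -1.73. MT1G, a neighbour of MT1H in the cluster, had 310 in Jeko-1/R, against 695 in Jeko-1 (204745_x_at, log2 ratio -1.16). The direction was the same for MT1X, a class I gene at the far end of the cluster. Its probe sets gave 582 and 664 in Jeko-1/R, against 1258 and 1340 in Jeko-1 (204326_x_at and 208581_x_at, log2 ratios -1.11 and -1.01).

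MT2A, the single class II gene among those read and the major metallothionein of many human cells, had 926 in Jeko-1/R, against 1535 in Jeko-1. Its log2 ratio of -0.73 did not reach 2-fold. For MT1E, 212859_x_at gave 607 in Jeko-1/R, against 1217 in Jeko-1 (log2 ratio -1.002), and 216336_x_at gave 363 against 558 (-0.62). The ratio of 212859_x_at was 2.003-fold, so it lay at the edge of what was counted. The MT1F probe sets were nearly alike in this pair. They gave 610 in Jeko-1/R against 1013 in Jeko-1 for 213629_x_at (-0.73) and 435 against 742 for 217165_x_at (-0.77).

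Over these 9 probe sets the log2 ratio in the Jeko-1 pair ran from -1.73 to -0.62, with a median of -1.002 and an SD of 0.34 between probe sets. Over all 27731 probe sets measured in this pair the median was 0.01. Of the 12 readable probe sets of metallothioneins and MTF1, 5 were at least 2-fold lower and 0 at least 2-fold higher, where 0.537% and 0.545% of all measured probe sets were. Among x_at probe sets alone the shares were 1.04% and 0.848%. All 9 metallothionein probe sets were below 0, beside 48.2% of all measured probe sets and 53.3% of the x_at probe sets. This pair of arrays was used to choose the genes, so the counts are not evidence of a change. The x_at probe sets may also read some of the same transcripts, so they do not count as separate observations. With no replicates, the only spread to set beside them is that between probe sets of 1 gene, whose log2 ratios had an SD of 0.25 (5310 genes). This spread leaves out differences between cultures.

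**Figure D2:**
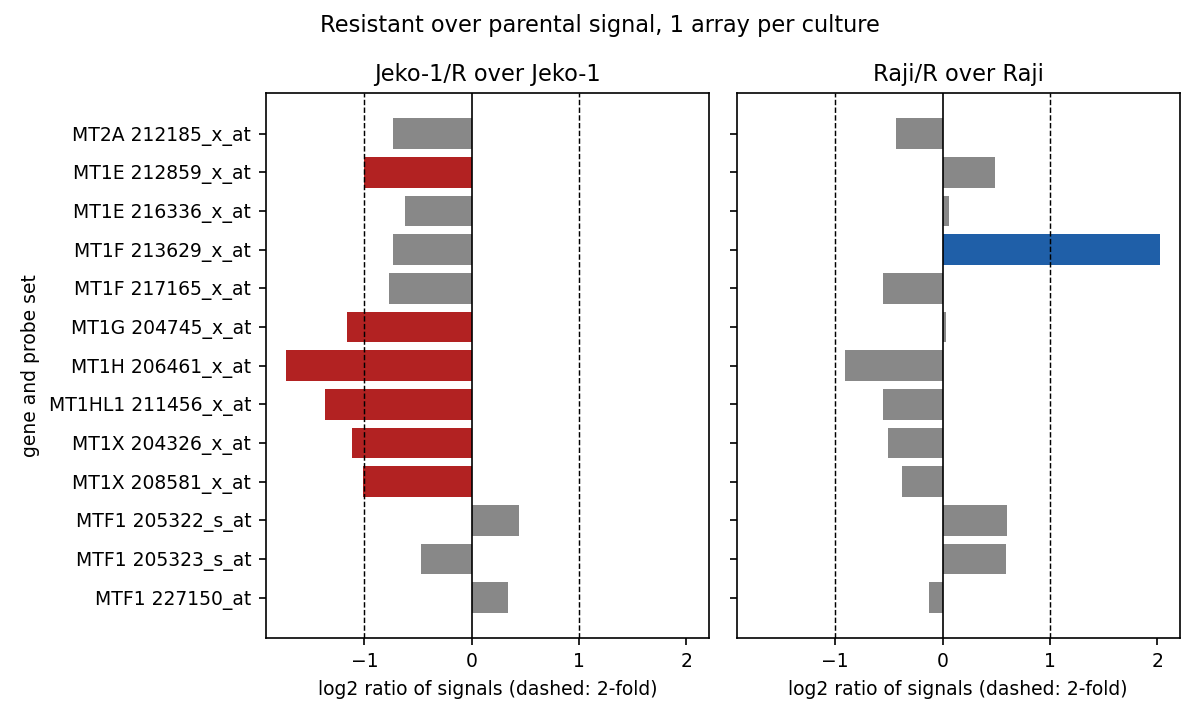
Log2 ratio of resistant over parental signal for each probe set above the floor on all 4 arrays, Jeko-1/R over Jeko-1 at left and Raji/R over Raji at right, with 2-fold marked by dashed lines and bars past it in red (lower) or blue (higher). MT1HL1, a related gene outside the 8, is included. All metallothionein bars point left at left; at right MT1F 213629_x_at stands at 2.02 and MT1H at -0.91.

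In Raji/R the metallothionein probe sets did not move as 1 block. MT1H had 2874 in Raji/R, against 5403 in Raji, which is 1.88-fold lower (log2 ratio -0.91). MT2A had 14779 in Raji/R, against 19917 in Raji (-0.43). MT1X gave 11133 and 11100 in Raji/R, against 15834 and 14455 in Raji (-0.51 and -0.38). These signals were all lower in Raji/R and none of the differences reached 2-fold. MT1G was nearly the same in both, at 2790 in Raji/R and 2720 in Raji (0.04), and so was MT1E by 216336_x_at, at 1207 in Raji/R and 1158 in Raji (0.06). The other MT1E probe set gave 861 in Raji/R, against 613 in Raji (0.49).

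MT1F was read in opposite directions by its probe sets in this pair. With 213629_x_at its signal was 819 in Raji/R, against 202 in Raji, which is 4.06-fold higher (log2 ratio 2.02). With 217165_x_at it was 2478 in Raji/R, against 3646 in Raji (-0.56). The gap between these ratios was 2.58 on the log2 scale. Among 12888 pairs of probe sets of 1 gene that were above the floor on both Raji arrays, 0.233% were at least as far apart, and their median gap was 0.41. In the Jeko-1 pair the MT1F gap was 0.04. The direction of MT1F in Raji/R cannot be settled from these probe sets.

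Over the 9 probe sets the log2 ratio in the Raji pair ran from -0.91 to 2.02, with a median of -0.38 and an SD of 0.87. The median over all 33630 measured probe sets was 0.11. Of the 12 readable probe sets of metallothioneins and MTF1, 0 were at least 2-fold lower and 1, MT1F 213629_x_at, at least 2-fold higher, where 2.88% and 7.73% of all measured probe sets and 3.14% and 8.24% of the x_at probe sets were. Probe sets of 1 gene had an SD of 0.49 in this pair (4949 genes). Below 0 were 5 of the 9 metallothionein probe sets (MT2A, MT1H, both of MT1X and 217165_x_at of MT1F), against 41.8% of all measured probe sets and 39.3% of the x_at probe sets. With each array centred on its median 7 of 9 were below 0, since MT1G and 216336_x_at of MT1E then stood at -0.37 and -0.35. That centring also put the median of all measured probe sets at -0.25. Most of them were thus below 0 too, and the shares just given do not apply to it. On the deposited scale MT1H, MT2A, both probe sets of MT1X and 217165_x_at of MT1F were below 0 in both pairs. So were 23.3% of the 23475 probe sets measured in both. MT1H was chosen for being lower in both, so its part in this count was fixed in advance. The other 4 metallothionein probe sets had opposite signs in the 2 pairs, as had 50.6% of those 23475. Here too the x_at probe sets may read some of the same transcripts and do not count as separate observations.

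**Figure D3:**
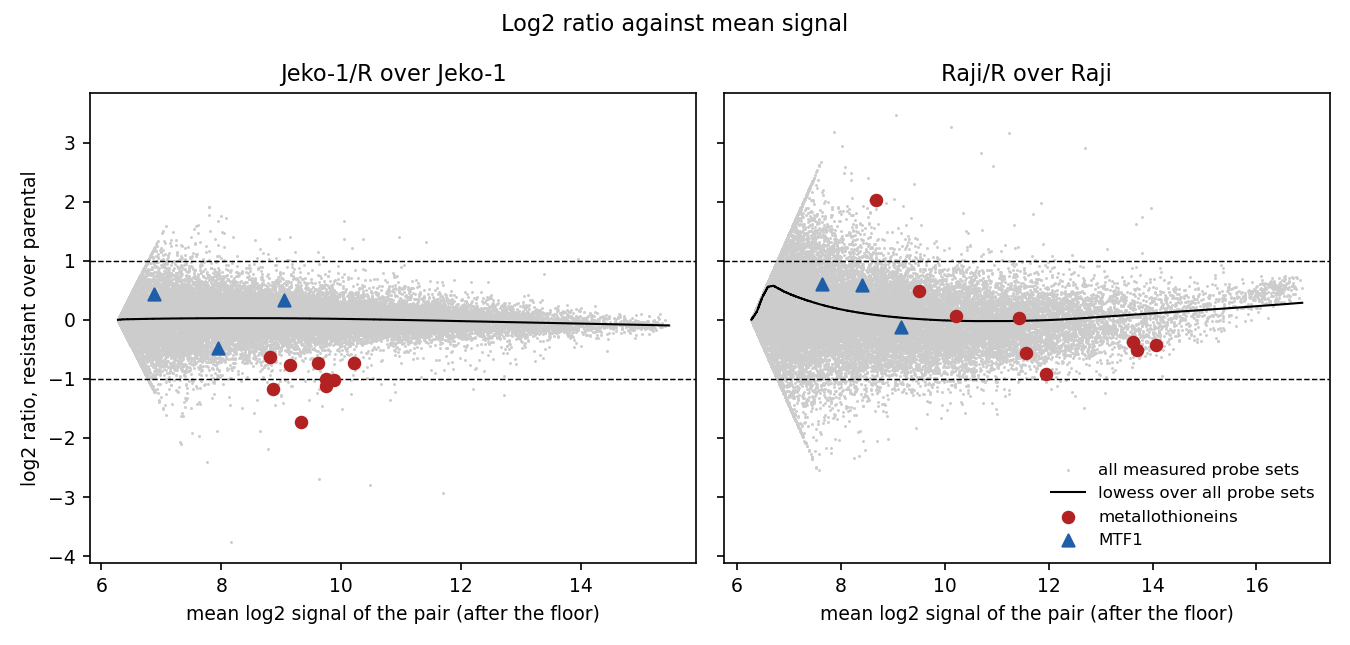
Log2 ratio against the mean log2 signal of each pair, with all measured probe sets in grey, metallothioneins as red circles, MTF1 as blue triangles and a lowess curve in black. In Jeko-1 all 9 red points lie below the curve, between -1.73 and -0.62; in Raji they spread from -0.91 to 2.02, and the grey points at low signal lie mostly above 0.

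The related x_at probe sets were then set against that of MT1H. In the Jeko-1 pair all of them stood on the same side of 0 as MT1H, and none of them was as low. In the Raji pair 4 of the other 8 stood on the same side. MT1HL1, a class I-like gene on chromosome 1 outside the 8 genes, was read by 211456_x_at. It had 442 in Jeko-1/R against 1137 in Jeko-1 (-1.36) and 10770 in Raji/R against 15766 in Raji (-0.55), so it ran with MT1H. Its probes may bind the same transcripts, so it does not count as a separate observation.

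Of the 13 other family symbols looked up, MT1HL1, MT3 and MT4 had a probe set. MT3, a metallothionein known mainly from brain, had signals of 89.8 in Jeko-1/R and 57.2 in Jeko-1, and of 217 in Raji/R and 60.7 in Raji. Both parental values were below the floor, and the ratio was at least 2.80-fold higher in Raji/R. MT4, known from stratified epithelium, had 6.33 in Jeko-1/R and 4.96 in Jeko-1, both below the floor, and 159 in Raji/R against 7.46 in Raji, at least 2.05-fold higher. Dim signals were higher in general on the Raji/R array. After removal of a lowess fit of the ratio on mean signal, MT3 stood at 1.05 and MT4 at 0.51 on the log2 scale in the Raji pair, so MT4 no longer reached 2-fold.

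The comparison of the Jeko-1 lines with the Raji lines was not the one by which MT1H was chosen. The members were nevertheless listed with earlier results of these data known. Each lymphoma was represented by 1 cell line, and a subline is not a replicate of its parent, so this too is described without a test. Metallothionein signals were lower in the Jeko-1 lines on 7 of the 9 probe sets. The mean log2 signal of MT2A was 10.2 over Jeko-1/R and Jeko-1, against 14.1 over Raji/R and Raji, which is 14.4-fold higher in the Raji lines. MT1X was 15.5-fold and 13.4-fold higher in the Raji lines by its probe sets, MT1H 6.11-fold and MT1G by 204745_x_at 5.93-fold. The other MT1G probe set, 210472_at, was below the floor on all 4 arrays, with 18.1 in Raji/R and 4.07 in Raji. By 204745_x_at the signals were 2790 in Raji/R and 2720 in Raji, and which transcripts gave them was not tested. MT1F by 217165_x_at was 5.29-fold higher and MT1E by 216336_x_at 2.63-fold higher in the Raji lines. These 7 probe sets had both Raji-line arrays above both Jeko-1-line arrays, which 33.7% of all 37886 probe sets on or above the floor also had. All 7 were at least 2-fold higher in the Raji lines, against 18.1% of all probe sets. In the other direction, 0 of the 9 had both Jeko-1-line arrays above both Raji-line arrays or were at least 2-fold higher in the Jeko-1 lines, beside 33.2% and 21.7% of all probe sets. Over the 9 the median log2 difference was -2.57, and over all probe sets it was -0.14. The 9 probe sets may read some of the same transcripts, so they do not count as separate observations.

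The exceptions were again 1 probe set of MT1F and 1 of MT1E. By 213629_x_at MT1F had 610 in Jeko-1/R and 1013 in Jeko-1, which lie around the 819 of Raji/R and above the 202 of Raji. By 212859_x_at MT1E had 607 in Jeko-1/R and 1217 in Jeko-1, beside 861 in Raji/R and 613 in Raji. In both, the arrays of the lines overlapped. The MT1F probe sets differed by 3.36 in their log2 difference between lines, and 1.85% of 10450 pairs of probe sets of 1 gene were at least as far apart. For MT1E the gap was 1.64, which 15.1% of pairs reached.

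The order of the arrays from low to high was Jeko-1/R, Jeko-1, Raji/R and Raji for MT2A, MT1H, both probe sets of MT1X and 217165_x_at of MT1F. This was 5 of the 9 probe sets, and 7.77% of all probe sets had this order. The order requires the resistant array to be below its parent in both lines. MT1H was chosen for that, so the count is not evidence of a shared order. For MT1G and 216336_x_at of MT1E, Raji/R came last instead of Raji, by less than the 0.49 spread between probe sets of 1 gene. The order was Jeko-1/R, Raji, Raji/R and Jeko-1 for 212859_x_at of MT1E, and Raji, Jeko-1/R, Raji/R and Jeko-1 for 213629_x_at of MT1F.

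MTF1, the zinc sensor, showed no such pattern. Its probe set 227150_at gave 597 in Jeko-1/R against 472 in Jeko-1 (0.34) and 549 in Raji/R against 600 in Raji (-0.13). The probe set 205323_s_at gave 209 in Jeko-1/R against 289 in Jeko-1 (-0.47) and 417 in Raji/R against 276 in Raji (0.60). The third, 205322_s_at, gave 137 in Jeko-1/R against 101 in Jeko-1 (0.44) and 243 in Raji/R against 161 in Raji (0.60). The probe sets disagreed in sign in both pairs and none was 2-fold apart. Between the Jeko-1 and Raji lines MTF1 was 1.08-fold to 1.68-fold higher in the Raji lines.

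Genes of metal transport were read beside the metallothioneins, each by its brightest probe set. Zinc exporters of the SLC30 family move zinc out of the cytosol. Of 10 in the list, 6 were readable in Jeko-1 cells and 7 in Raji cells. In either pair 0 were 2-fold apart in either direction. Over all genes, 0.57% were 2-fold lower and 0.345% higher in the Jeko-1 pair, and 2.62% and 6.86% in the Raji pair. The median log2 ratios of the exporters were -0.01 and -0.38, where all genes stood at 0.00 and 0.08. SLC30A1, the plasma membrane zinc exporter and another known target of MTF1, was singled out after its values were seen. It had 1324 in Jeko-1/R against 1686 in Jeko-1 (-0.35) and 345 in Raji/R against 447 in Raji (-0.38), although its other probe set gave -0.66 and 0.11.

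Zinc importers of the SLC39 family bring zinc into the cytosol. Of 12 measured in the Jeko-1 pair 0 were 2-fold apart (median -0.02). Of 13 measured in the Raji pair 0 were 2-fold lower and 1 was 2-fold higher (median 0.13), where 2.62% of 14587 genes were lower and 6.86% were higher. That gene was SLC39A5, with 476 in Raji/R against 176 in Raji (1.43, and 1.28 after the lowess adjustment). In the Jeko-1 pair the shares over 11586 genes were 0.57% lower and 0.345% higher.

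Copper handling genes include the copper carriers, chaperones and pumps. Of 11 measured in the Jeko-1 pair 0 were 2-fold apart (median -0.02). Of 11 measured in the Raji pair 1 was lower and 1 higher (median 0.28), beside the 2.62% and 6.86% of all genes given above. The lower gene was SLC31A2, a copper transporter of internal membranes, with 51.8 in Raji/R against 161 in Raji, at least 2.08-fold lower. The higher gene was STEAP3, a metalloreductase, with 186 in Raji/R against 59.5 in Raji, at least 2.40-fold higher. Both rest on 1 array below the floor. After the lowess adjustment STEAP3 stood at 0.78, below 2-fold, and SLC31A2 at -1.58.

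Glucocorticoid response genes were read because glucocorticoids also induce metallothioneins. Of 7 measured in the Jeko-1 pair 6 were below 0, beside 49.8% of all genes, with a median of -0.27, and 0 were 2-fold apart. Of 7 measured in the Raji pair 2 were below 0, beside 44.0% of all genes, with a median of 0.66. In this pair 0 were 2-fold lower and 2 were 2-fold higher, beside 2.62% and 6.86% of all genes. These were KLF9, a zinc finger factor, at 156 in Raji/R against 56.9 in Raji (at least 2.01-fold higher), and IRS2, an adaptor of insulin signalling, at 158 against 26.1 (at least 2.05-fold higher). The other IRS2 probe set gave 0.03 in the Raji pair, and other KLF9 probe sets gave 0.88 and 1.91. After the lowess adjustment KLF9 by its brightest probe set stood at 0.47 and IRS2 at 0.50, both below 2-fold.

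**Figure D4:**
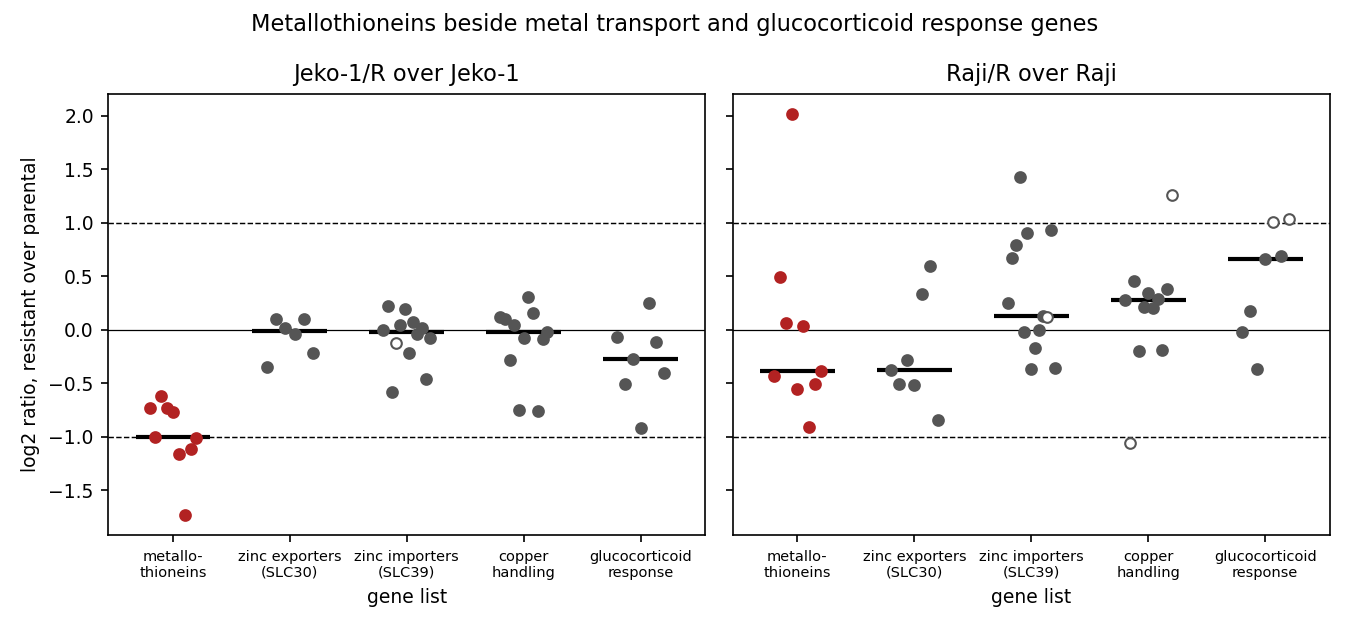
Log2 ratio of resistant over parental signal for the 9 metallothionein probe sets (red) and for genes of 4 lists (grey, 1 brightest probe set per gene), Jeko-1/R over Jeko-1 at left and Raji/R over Raji at right. Open points have 1 array below the floor, and black bars are medians, at -1.002 for metallothioneins at left and -0.38 at right.

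Genes with a profile like that of MT1H were looked up by the Euclidean distance over the 4 arrays, after centring each log2 profile on its mean. Among 29654 probe sets outside the family the nearest was that of IFI6, an interferon-induced gene, at a distance of 0.66. It had 92.7 in Jeko-1/R against 208 in Jeko-1 and 690 in Raji/R against 804 in Raji. Next came RAB11FIP4, an effector of endosomal Rab proteins (0.69), TRAF1, an adaptor of TNF receptors (0.69), TSC22D3 by 207001_x_at (0.75) and SIPA1L3 (0.76). The TRAF1 signal in Jeko-1/R, 21.1, was below the floor and was raised to it, so its distance and place depend on the floor. TSC22D3 encodes the glucocorticoid-induced leucine zipper protein. By 207001_x_at its log2 ratio was -1.43 in Jeko-1/R, while its brightest probe set gave -0.51 there. The nearest metallothionein probe sets were 217165_x_at of MT1F (0.75) and 204745_x_at of MT1G (0.78), and 213629_x_at of MT1F was the farthest (4.18).

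Within the family, the profile of MT2A was nearest to those of the 2 MT1X probe sets, at 0.23 for 208581_x_at and 0.30 for 204326_x_at. Outside the family the nearest genes were PILRA, an inhibitory receptor of immune cells (0.25), SERPINA9, a serpin of germinal centre B cells (0.27), ACKR3, an atypical chemokine receptor (0.29), UNC119 (0.31) and MOB3A (0.34). PILRA, SERPINA9 and ACKR3 were nearer to MT2A than 204326_x_at was, but not nearer than 208581_x_at. PILRA had 195 in Jeko-1/R against 391 in Jeko-1 and 3058 in Raji/R against 4133 in Raji. A likeness over 4 arrays rests mostly on the difference between the cell lines.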

How the data were processed

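Total RNA was extracted with Trizol, labelled with biotin and hybridised to Affymetrix arrays, per the labels' protocols. Per array, the authors deposited 54613 probe set signals on a log2 scale. The submitters' processing notes name MAS5, with its version not given in the sources used here. Base 2 was inferred, because it makes the trimmed mean signal (2% cut at each end) nearly equal across arrays. Detection calls and probe-level error were not used here, and the number of arrays limits the precision.

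Names came from the platform's annotation, with symbols updated by gene ID (RefSeq, GRCh38.p14): 41091 had 1 symbol, 1801 several and 11721 none. Each member probe set had 1 annotated symbol, although the source transcript of 204326_x_at is that of MT1L and not of MT1X. Values below the pooled median (log2 6.28) were raised to it, and probe sets with at least 1 array of a pair at or above it were measured. Where 1 array of a pair was below this floor, the ratio is a bound. Changed means 2-fold. There was no test, since each group had 1 array. The members and lists were chosen with earlier results of these data known. The text names all member probe sets, all other family probe sets, up to 4 changed genes per list and the 5 genes nearest to MT1H and to MT2A. Alternatives were quantile normalization, median centring, lowess (fraction 0.3), other floors, a pseudocount of 32 and other choices of probe sets. Calling at 2-fold and the lowess step were tested on simulated data. The simulated noise was smaller than the spread between probe sets of 1 gene given above. Only probe sets well above the floor were shifted, by more than 2-fold. The simulation therefore does not show how calls near the floor or near 2-fold behave. Python 3.11.15, numpy 2.4.6, pandas 2.3.3, statsmodels 0.14.6 and matplotlib 3.10.9 were used.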

Additional observations from a re-analysis of the deposited data

Results flagged for a closer look

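Several probe sets stood on opposite sides of 0 in the resistant sublines, as did 50.6% of all probe sets measured in both pairs. With 1 array per culture the difference between the lines was not tested. The largest gap was that of MT1F by 213629_x_at, at 2.02 in the Raji pair and -0.73 in the Jeko-1 pair, a difference of 2.75 on the log2 scale. The other MT1F probe set was below 0 in both. For MT1E the difference was 1.49 by 212859_x_at and 0.68 by 216336_x_at, and for MT1G it was 1.20 by 204745_x_at. MTF1 differed by 1.06 with 205323_s_at and by -0.47 with 227150_at. Among other genes named, the zinc importer SLC39A5 differed by 1.55, the copper transporter SLC31A2 by -1.16 and IRS2 by 1.15, each as the Raji ratio minus the Jeko-1 ratio.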

How the results depend on the processing

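Each result was recomputed under up to 8 alternative settings, and a lowess fit on measured probe sets only was added after seeing the data. MT1H stayed lower in both sublines under every setting that re-scales or re-floors it, at -1.83 to -1.65 in Jeko-1/R and -1.32 to -0.77 in Raji/R. The metallothionein median ran from -1.09 to -0.92 in the Jeko-1 pair, from -0.79 to -0.33 in the Raji pair and from -2.73 to -2.30 between the Jeko-1 and Raji lines. The count past 2-fold changed in 5 cases. In the Jeko-1 pair, where it was 5, a pseudocount made it 3, the floor set at the 75th percentile made it 4, and use of the brightest probe set per gene also made it 4. In the Raji pair it was 2 with arrays centred on their median, where MT1H passed 2-fold lower, and 0 with the brightest probe set per gene, which leaves out 213629_x_at of MT1F. That probe set stood at 1.16 with the floor at the 75th percentile, which raises its Raji value. Median centring moved the median of all measured probe sets in the Raji pair to -0.25, against 0.11 as deposited, and turned the split there to 8.94% lower and 2.89% higher; with quantile normalization it was 6.43% and 6.60%. Each ratio was taken within a line, as resistant over parental. No paired test was run, because each group had 1 array and the genes were chosen on this contrast.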
